A study of Homo sapiens with 6 samples.

Results

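The 10 genes described here are factors that human pluripotent stem cells use to stay undifferentiated: POU5F1, NANOG, SOX2, SALL4, PRDM14, ZFP42, DPPA4, DPPA2, L1TD1 and UTF1. They were taken by name, and each symbol matched a single Ensembl gene ID among the 60499 listed. All 10 were abundant enough to be tested, out of 17608 genes tested in all. The RNA came from H1, an established human embryonic stem cell line, which was kept in Nutristem medium for 4 days. The wells were coated with laminin-521 (LN-521) or with laminin-521 plus laminin-221 (LN-521+LN-221, the mixed coating). Each coating had 3 wells, sequenced separately as total RNA, with no other treatment and no genetic change named in the labels. The question of the comparison is how the added laminin, a basement membrane protein, affects RNA levels of the same cells in the same medium.

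Pluripotency, the capacity to form every cell lineage of the body, rests on a small circuit of transcription factors. OCT4 (encoded by POU5F1) and SOX2 bind side by side on DNA at paired octamer and SOX elements, and together with NANOG they activate their own genes and a wider set of stem cell genes while keeping developmental regulators silent. SALL4 and PRDM14 are zinc finger proteins that act with this circuit, and ZFP42 (REX1), a zinc finger protein of the YY1 family, is a classical marker of the undifferentiated state. DPPA2 and DPPA4 are SAP domain proteins that work as a pair on chromatin, UTF1 is a chromatin-associated transcription cofactor, and L1TD1 is an RNA-binding protein derived from a LINE-1 element, so that not every member is a transcription factor in the strict sense.

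Paired elements of this kind can be looked for ahead of the circuit's own genes. RefSeq windows of 250 bases before the transcription start (GRCh38.p14) were available for 7 of the 10 genes, but not for POU5F1, SALL4 or PRDM14. The windows were searched on both strands for an octamer core, TTTGCAT, and a SOX core, ACAATG. The window of NANOG held both, and the window of SOX2 held the octamer core alone. The other 5 windows, those of ZFP42, DPPA4, DPPA2, L1TD1 and UTF1, held neither string. The bases from 250 to 11 before each start are shown, 5′ to 3′ on the plus strand, with the matches in capitals; NANOG covers chr12:7789152-7789391 and SOX2 covers chr3:181711675-181711914.
NANOG: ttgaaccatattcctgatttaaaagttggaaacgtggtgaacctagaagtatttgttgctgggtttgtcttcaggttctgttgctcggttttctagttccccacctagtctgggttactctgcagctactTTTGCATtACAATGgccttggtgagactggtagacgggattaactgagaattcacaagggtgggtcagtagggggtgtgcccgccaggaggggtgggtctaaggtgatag
SOX2: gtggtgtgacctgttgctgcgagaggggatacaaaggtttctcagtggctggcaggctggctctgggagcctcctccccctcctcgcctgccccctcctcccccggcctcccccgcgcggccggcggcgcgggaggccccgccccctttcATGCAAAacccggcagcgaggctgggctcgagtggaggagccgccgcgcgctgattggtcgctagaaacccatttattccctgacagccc
In NANOG the octamer core begins 120 bases and the SOX core 112 bases before the start, so that 1 base separates them and they do not overlap. In SOX2 the octamer core lies on the minus strand, begins 100 bases before the start and therefore reads as its reverse complement here. Among 35116 RefSeq windows of the same length, 3.94% held the octamer core, 9.29% the SOX core and 2 (0.0057%) the octamer core followed after 1 base by the SOX core. Those were NANOG and NRARP, the latter named here after the search. A match describes the letters only and was not tested as a binding site. Its relation to the difference between the coatings was not tested either.

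Totals ranged from 20606450 to 26836686 estimated counts per library, and a single sequencing batch is listed for all of them. Replicate pairs differed by more than counting noise, with a chi-square statistic per degree of freedom from 2.76 to 14.1; the highest value was between LN-521 replicates 1 and 2. The label of the cells was checked against markers of pluripotent cells outside the 10 genes: LIN28A, TDGF1, DNMT3B, PODXL, EPCAM, CDH1 and TERT summed to 1822 to 2150 TPM on LN-521 and 1944 to 2102 TPM on the mixed coating. Within these overlapping sums the edgeR test called 1 of the 7 higher on the mixed coating, LIN28A (0.23 on the log2 scale, adjusted p = 0.00737), and 1 lower, TDGF1 (-0.65, adjusted p = 8.23e-06); among all genes tested 1.4% were called higher and 1.14% lower, which also stands beside the marker counts that follow. Summed levels of 6 mesoderm markers (1.99 to 2.65 TPM over all libraries) and of 6 endoderm markers (1.33 to 3.3 TPM) were low, and those of 6 trophoblast markers ranged from 13.2 to 16.5 TPM, most of it KRT7. The 6 neuroectoderm markers summed to 60.9 to 73.8 TPM on LN-521 and 83.6 to 86.9 TPM on the mixed coating; most of this was NES, which pluripotent cells also express, and LHX5 went from a mean of 5.76 to 19.6 TPM. The 6 fibroblast markers summed to 88.4 to 101.6 and 72.8 to 90.5 TPM, almost all of it THY1, itself a stem cell surface antigen, and COL1A1, while LUM was at 0 in every library. By the edgeR test, 1 of the 6 neuroectoderm markers rose, ZIC1 (1.36 ± 0.35, SE, adjusted p = 0.0474), and 1 of the 6 fibroblast markers fell, THY1 (-0.38 ± 0.08, SE, adjusted p = 0.0146). None of the mesoderm, endoderm or trophoblast markers passed. Of these, 1 had an unadjusted edgeR p-value under 0.05, AFP at 0.0291, beside 14.5% of all genes tested. ZIC1 had at most 27 counts and missed the threshold with any 1 library left out (edgeR adjusted p from 0.0535 to 0.272), and THY1 missed it without LN-521 replicates 2 or 3 or mixed-coating replicates 2 or 3 (edgeR adjusted p = 0.0903, 0.130, 0.0984 and 0.114). The part of these marker differences in the results that follow was not tested.

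Levels were compared between genes in TPM, the authors' unit, which corrects for transcript length. POU5F1 was the most abundant factor, at 836 ± 36.3 TPM (SD, n = 3) on LN-521 and 671 ± 10.8 TPM (SD, n = 3) on the mixed coating. Among 19650 protein-coding genes it ranked between 84 and 95 on LN-521 and between 105 and 108 on the mixed coating. DPPA4 came next, at 508 ± 29.5 and 491 ± 22.7 TPM (SD, n = 3 each), ranked 126 to 136 over the 6 libraries. POU5F1 alone made up 40.7% to 46.4% of the summed TPM of the 10 genes on LN-521 and 38.6% to 40.2% on the mixed coating.

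A middle group followed well below these. SOX2 stood at 155 ± 23.4 and 167 ± 5.75 TPM, L1TD1 at 123 ± 26.5 and 122 ± 10.5 TPM, and SALL4 at 106.0 ± 10.6 and 114 ± 2.76 TPM on LN-521 and LN-521+LN-221 (SD, n = 3 each). On LN-521 the ranges of SOX2 and L1TD1 overlapped, as did those of L1TD1 and SALL4, but SOX2 was above L1TD1 within each of the 3 libraries and L1TD1 above SALL4 in 2 of them. On the mixed coating only L1TD1 and SALL4 overlapped among these neighbours, with L1TD1 above SALL4 within each of the 3 libraries. ZFP42 was at 67.5 ± 6.86 and 69.9 ± 2.76 TPM (SD, n = 3 each). These genes and the 2 at the top are placed against all others in the plot of protein-coding genes by level: 5 of the 10 were within the 1000 most abundant protein-coding genes in every library.

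NANOG, PRDM14 and DPPA2 were expressed at lower levels, and UTF1 was the lowest. NANOG held 56.2 ± 10.4 TPM on LN-521, where its range overlapped that of ZFP42, and 33.6 ± 4.72 TPM on the mixed coating, where it overlapped that of PRDM14 instead (SD, n = 3 each). PRDM14 was at 30.9 ± 2.13 and 28.2 ± 1.27 TPM and DPPA2 at 17.1 ± 1.06 and 14.7 ± 1.93 TPM (SD, n = 3 each). UTF1 had 2.34 ± 0.197 and 2.22 ± 0.243 TPM (SD, n = 3 each), from 52 to 79 counts per library, and ranked between 10744 and 11223 among protein-coding genes. The order of the 10 genes by mean TPM was identical on the 2 coatings.

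**Figure D1:**
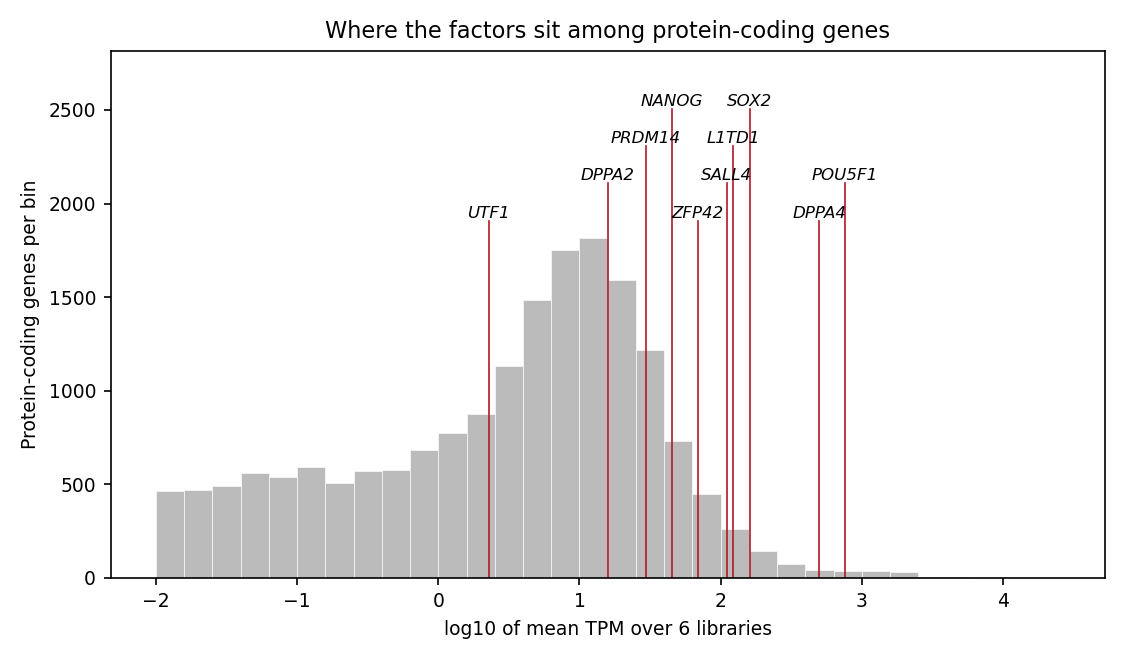
Histogram of protein-coding genes by log10 of mean TPM over the 6 libraries (x axis; y axis, genes per bin of 0.2; genes under 0.01 TPM left out), with the 10 factors marked by red lines. POU5F1 and DPPA4 lie in the sparse upper tail, and UTF1 lies below the peak of the distribution.

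**Figure D2:**
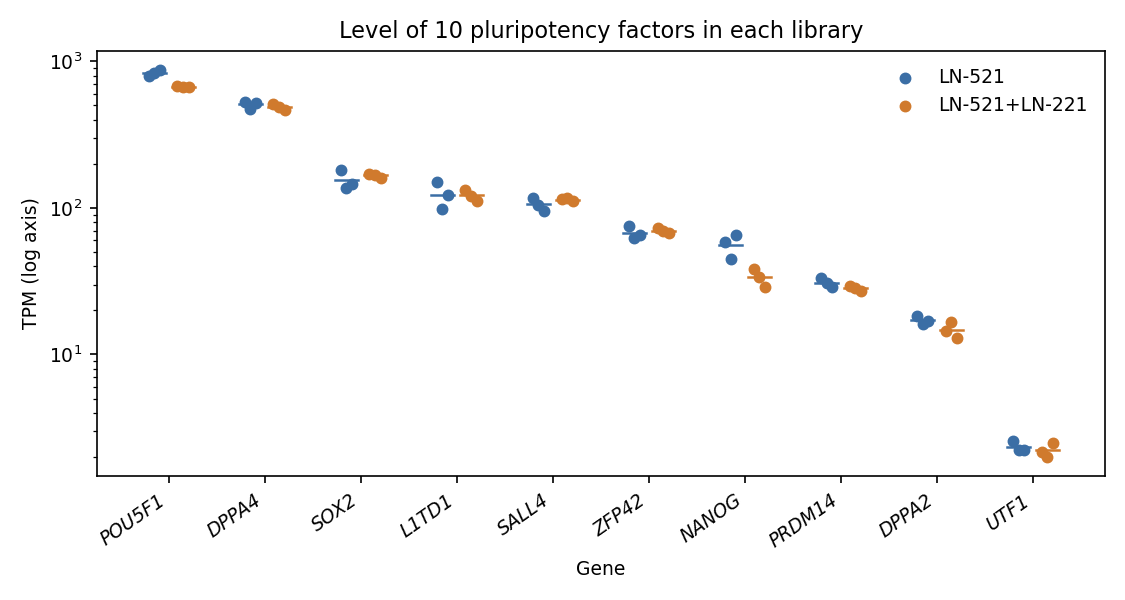
TPM of each factor (log axis) in each library; points are single libraries, short lines are means of 3, blue is LN-521 and orange the mixed coating. The coatings separate for POU5F1 and NANOG and overlap for the other 8.

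Between the coatings, NANOG and POU5F1 fell on the mixed coating and none of the other 8 factors passed the threshold in either direction. The threshold was an adjusted p of 0.05 in the quasi-likelihood test of edgeR, with Benjamini-Hochberg adjustment over all 17608 genes. It was passed by 2 of the 10 genes, beside 2.53% of all genes tested; both were lower, beside 1.14% of all genes called lower and 1.4% called higher. The log2 fold change, mixed coating relative to LN-521, was negative for 7 and positive for 3, beside 50.3% negative among all genes tested. ZFP42 turned negative with the GC correction and L1TD1 positive without LN-521 replicate 1. The median of the 10 was -0.10, beside -0.0011 over all genes tested. Scaled counts (CPM, counts relative to a library size adjusted by the trimmed mean of M-values) did not overlap between the groups for 5 of the 10, all of them lower on the mixed coating, beside 19.9% of all genes tested in either direction and 9.68% downward. As these are bulk samples, fewer cells expressing a gene and less RNA per cell cannot be told apart.

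NANOG, the homeodomain factor that stabilises the undifferentiated state, showed the largest difference. It lies on chromosome 12 at 7787794 to 7799141, plus strand (GRCh38, GENCODE 29), and the RefSeq start used for the window above lies inside that span. Its CPM was 105.5, 97.3 and 117.8 in LN-521 replicates 1, 2 and 3 and 72.8, 63.6 and 57.0 in mixed-coating replicates 1, 2 and 3. Every LN-521 library stood above every mixed-coating library, with a gap between 97.3 and 72.8 CPM. The log2 fold change was -0.73 ± 0.09 (SE; 95% interval -0.92 to -0.54), a fall of 39.7% (edgeR adjusted p = 1.65e-04). Its rank among protein-coding genes went from 1003 to 1444 on LN-521 to 2014 to 2536 on the mixed coating. The deposited TPM values had the same separation, at 58.1, 44.9 and 65.4 against 38.3, 33.6 and 28.9.

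POU5F1, whose protein OCT4 is the POU domain partner of SOX2, had the next largest difference. It lies on chromosome 6 at 31164337 to 31180731, minus strand. Its CPM was 1068, 1302 and 1273 in LN-521 replicates 1, 2 and 3 and 927, 931.5 and 975.3 on the mixed coating. The groups did not overlap, and LN-521 replicate 1 lay closer to the mixed-coating libraries than to the other LN-521 libraries. The log2 fold change was -0.36 ± 0.06 (SE; 95% interval -0.50 to -0.23), a fall of 22.2% (edgeR adjusted p = 0.00366). In TPM the libraries read 799, 838 and 872 against 683, 665 and 665.

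On the deposited TPM values neither gene passed the threshold, although the sizes were close: limma on log2(TPM + 1) gave -0.72 for NANOG (adjusted p = 0.221) and -0.32 for POU5F1 (adjusted p = 0.333), with unadjusted p-values of 0.00201 and 0.00579. POU5F1 missed the threshold without mixed-coating replicate 2 (-0.35, edgeR adjusted p = 0.0508), and NANOG missed it when a GC correction was joined with the replicate block (-0.75, edgeR adjusted p = 0.0606); NANOG kept it in each of the 6 fits that left out 1 library.

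SOX2, the HMG box partner of OCT4, did not pass the threshold. Its CPM was 488, 439 and 440.4 on LN-521 and 472, 486 and 481 on the mixed coating, with the highest library on LN-521. The groups overlapped, and the log2 fold change was 0.07 ± 0.05 (SE; 95% interval -0.04 to 0.19; edgeR adjusted p = 0.577). SALL4, a zinc finger regulator upstream of POU5F1, ranged from 375 to 426 CPM on LN-521 and from 392 to 427 CPM on the mixed coating (0.06 ± 0.06, SE; 95% interval -0.06 to 0.18; edgeR adjusted p = 0.706). ZFP42 had the log2 difference nearest to 0, from 198 to 203 CPM on LN-521 and from 201 to 202 CPM on the mixed coating (0.01 ± 0.05, SE; 95% interval -0.09 to 0.12; edgeR adjusted p = 0.931). The intervals of SOX2, SALL4 and ZFP42 all exclude a fall of the size measured for POU5F1.

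PRDM14, which in human cells holds back differentiation genes and activates POU5F1, differed little between the mixed-coating libraries. Its CPM was 82.8, 90.9 and 80.5 on LN-521 and 75.3, 76.1 and 75.0 on the mixed coating. The groups did not overlap, but the log2 fold change of -0.17 ± 0.06 (SE; 95% interval -0.30 to -0.04) did not pass the threshold (edgeR adjusted p = 0.200; unadjusted p = 0.0146). DPPA2 did not overlap and did not pass either, at 25.4, 26.5 and 26.4 CPM against 20.7, 24.9 and 20.0, a log2 difference of -0.26 ± 0.09 (SE; 95% interval -0.44 to -0.07; edgeR adjusted p = 0.171). With a correction for GC content DPPA2 did pass (-0.27, edgeR adjusted p = 0.0489). Including NANOG and POU5F1, 4 of the 10 genes had an unadjusted p-value under 0.05, beside 14.5% of all genes tested.

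DPPA4 lies next to DPPA2 on chromosome 3, on the same strand, with 9623 bases between the annotated genes (DPPA2 at 109293788 to 109316517 and DPPA4 at 109326141 to 109337572, GRCh38). The neighbours were far apart in level, as DPPA4 had up to 30.96 times the TPM of DPPA2 on LN-521 and up to 36.3 times on the mixed coating. DPPA4 had 1011, 1052 and 1076 CPM on LN-521 and 1003, 995 and 973 CPM on the mixed coating. These values did not overlap, but the gap between the groups was smaller than the spread within either, and the log2 fold change was -0.08 ± 0.05 (SE; 95% interval -0.18 to 0.02; edgeR adjusted p = 0.493). The remaining genes overlapped: L1TD1 ranged from 491 to 637 CPM on LN-521 and from 527 to 575 CPM on the mixed coating (-0.05 ± 0.08, SE; edgeR adjusted p = 0.830), and UTF1 from 2.85 to 2.97 and from 2.42 to 3.13 CPM (-0.11 ± 0.18, SE; edgeR adjusted p = 0.831). The interval of UTF1 reached from -0.49 to 0.26 and so does not exclude a fall of the size measured for POU5F1. The same holds for the interval of DPPA2, from -0.44 to -0.07.

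**Figure D3:**
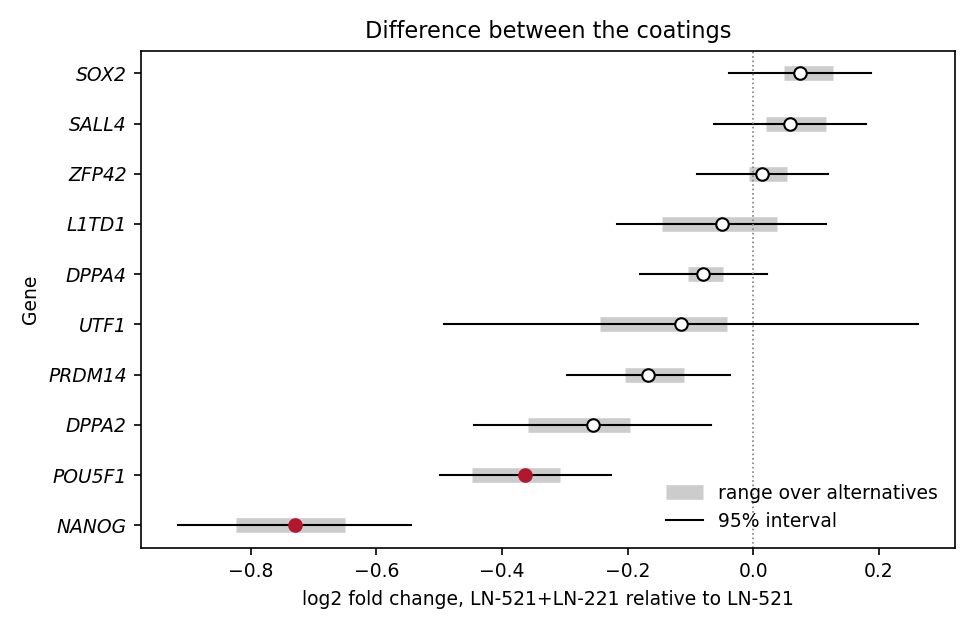
Log2 fold change of each factor (x axis, mixed coating relative to LN-521) with its 95% interval (black line) and the range over 20 alternative settings (grey bar); red points passed the adjusted threshold of 0.05. NANOG at -0.73 and POU5F1 at -0.36 are the red points, and the intervals of PRDM14 and DPPA2 also lie below 0.

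Relative RNA levels within the circuit were described by ratios of TPM within a library. The SOX2 to POU5F1 ratio was 0.227, 0.164 and 0.167 in LN-521 replicates 1, 2 and 3 and 0.250, 0.253 and 0.241 on the mixed coating. Every mixed-coating library was higher, by 0.43 on the log2 scale on average, and LN-521 replicate 1 was again the library nearest to the other group. The NANOG to SOX2 ratio was 0.321, 0.327 and 0.450 against 0.224, 0.200 and 0.180, lower in every mixed-coating library, by 0.85 on the log2 scale. The NANOG to POU5F1 ratio overlapped, at 0.0727, 0.0536 and 0.0750 against 0.0560, 0.0505 and 0.0434, with a mean log2 difference of -0.42. Two-sided exact permutation tests over the 6 libraries gave p = 0.1 for the SOX2 to POU5F1 ratio, 0.1 for NANOG to SOX2 and 0.2 for NANOG to POU5F1 (n = 3 per group); 0.1 is the smallest value this design allows, so none could pass 0.05. After Benjamini-Hochberg adjustment over the 3 ratios the exact permutation values were 0.15, 0.15 and 0.2.

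**Figure D4:**
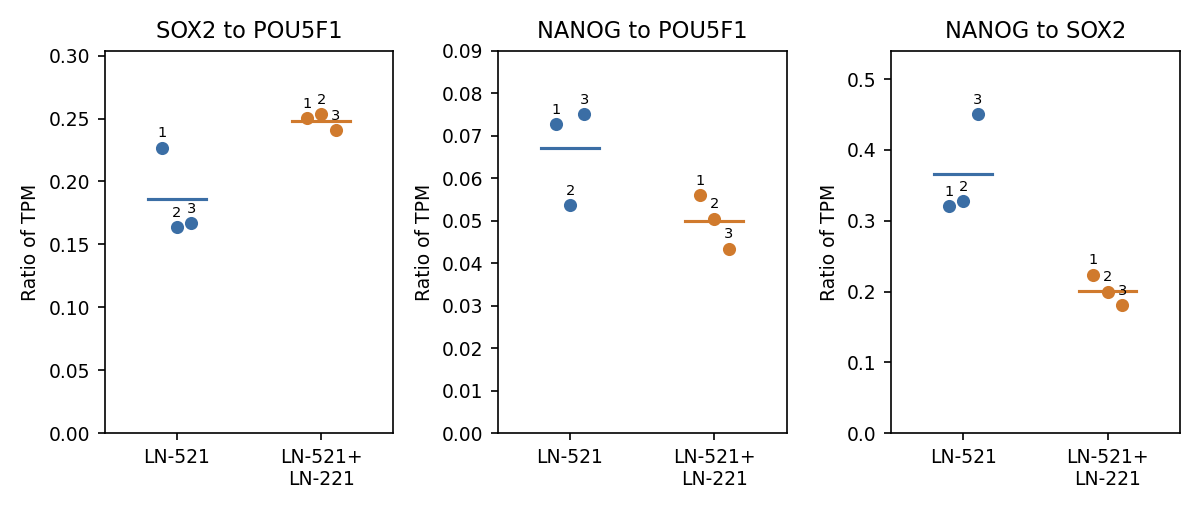
Ratios of TPM between SOX2, NANOG and POU5F1 (y axes, each from 0) in single libraries, with replicate numbers beside the points and means as lines. SOX2 to POU5F1 is higher and NANOG to SOX2 lower in all 3 mixed-coating libraries, and NANOG to POU5F1 overlaps.

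Some reads of POU5F1 and NANOG could belong to near-identical copies. Both had deposited counts that were not exact whole numbers (no tolerance) in all 6 libraries, SOX2 in 1, and the other 7 genes in none. The 7 annotated copies of POU5F1 together held 89.7 to 150.0 counts per library, 0.365% to 0.536% of the summed counts, mostly in POU5F1B, POU5F1P3 and POU5F1P4. The 11 copies of NANOG held 134 to 257 counts, 6.16% to 9.99% of the sum, mostly in the retrogene NANOGP8, which had 162, 220 and 165 counts on LN-521 and 122, 105 and 118 on the mixed coating (-0.50 ± 0.14, SE; edgeR adjusted p = 0.0711). NANOGP8 did pass without LN-521 replicate 1 (edgeR adjusted p = 0.0393), with the replicate block (0.0416), the GC correction (0.0297) or both (0.0280), and when no filter was used (0.0214). NANOGP1 had 19.7 to 31.5 counts. With the counts of all copies added to their parent gene, NANOG and POU5F1 still passed the threshold and no other member did. TCF19 overlaps exons of POU5F1 on the opposite strand and had 262 to 451 counts per library, against 19241 to 34640 for POU5F1. The strand setting of the counting is not given in the sources used here.

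SOX2, a gene on chromosome 3 at 181711924 to 181714436, lies inside an intron of the long non-coding gene SOX2-OT without sharing an exon in GENCODE 29. SOX2-OT, singled out with its values known, was higher in every mixed-coating library. It had 7.27, 5.94 and 6.82 CPM on LN-521 and 10.4, 9.69 and 10.0 CPM on the mixed coating, a log2 difference of 0.59 ± 0.12 (SE; edgeR adjusted p = 0.00810). Without mixed-coating replicate 3 the change was 0.59 with an edgeR adjusted p of 0.0501, and limma on log2(TPM + 1) gave 0.67 (adjusted p = 0.0861).

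Genes with the most similar course over the 6 libraries were found by the root mean square difference of centred log2 CPM among 9784 other protein-coding genes with a mean of at least 10 CPM over the 6 libraries. Nearest to NANOG were TDGF1, the Nodal co-receptor (0.0717), the metallothionein gene MT1X (0.1001) and SYT4, a synaptotagmin (0.104). Their log2 fold changes were -0.65 ± 0.06, -0.72 ± 0.07 and -0.68 ± 0.08 (SE). Nearest to POU5F1 were PPP1R16B (0.0208), SYT12 (0.0367) and PLBD2 (0.0392), at 15.2 to 21.5, 9.15 to 13.9 and 9.29 to 13.3 CPM. Their log2 fold changes were -0.34 ± 0.09, -0.41 ± 0.11 and -0.38 ± 0.10 (SE). All 6 genes were chosen for their likeness over the same libraries, so a fold change near that of NANOG or POU5F1 was fixed by the choice; the values are a description with no test.

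The wider network moved in both directions; with limma on log2(TPM + 1), OTX2 was the single gene called in edgeR from the lists that follow that also passed. Of 33 other transcriptional regulators of pluripotency, 30 were tested, 4 rose and 5 fell, with a median log2 fold change of -0.0041. Beside this and the lists after it stand 1.4% higher and 1.14% lower among all genes tested, with a median of -0.0011. The increases were in HESX1 (1.08 ± 0.14, SE), OTX2 (0.72 ± 0.06), POU3F1 (0.57 ± 0.10) and TFAP2C (0.37 ± 0.07), with edgeR adjusted p-values of 1.84e-04, 4.38e-06, 0.00471 and 0.00940. HESX1 and OTX2 are homeobox genes of the early anterior epiblast, and POU3F1 encodes the POU factor OCT6. OTX2 stood at 48.4, 46.8 and 41.7 TPM on LN-521 and 79.0, 79.7 and 79.2 TPM on the mixed coating. HESX1 went from 5.07 ± 1.34 to 10.5 ± 0.922 TPM (SD, n = 3 each).

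The regulators that fell were FOXD3, ETV4, SOX3, ETV5 and MYC. FOXD3, a forkhead gene of the epiblast and neural crest, had 5.02, 4.12 and 4.47 TPM on LN-521 and 2.93, 1.94 and 1.87 TPM on the mixed coating, a log2 difference of -1.07 ± 0.14 (SE; edgeR adjusted p = 1.55e-04). ETV4, an ETS factor induced by FGF signalling, changed by -0.62 ± 0.09 (SE; edgeR adjusted p = 9.19e-04). ETV5, its close relative, stood at -0.44 ± 0.11 (SE; edgeR adjusted p = 0.0322). SOX3, the closest relative of SOX2, stood at -0.61 ± 0.13 (SE; edgeR adjusted p = 0.0165), at 2.63, 2.25 and 2.55 TPM against 1.52, 1.80 and 1.67. SOX3 was lower in all 3 mixed-coating libraries. MYC, a growth regulator, was closest to the threshold, at -0.60 ± 0.14 (SE; edgeR adjusted p = 0.0498), with 11.25, 11.93 and 15.01 TPM against 9.40, 7.92 and 8.83. ETV5, SOX3 and MYC fall outside the naming rule and were named with their values known. HESX1, OTX2, FOXD3 and ETV4 kept the threshold in each fit that left out 1 library. POU3F1 missed it without mixed-coating replicate 3 (edgeR adjusted p = 0.0568), and TFAP2C without LN-521 replicate 3 (edgeR adjusted p = 0.0738) or mixed-coating replicates 2 (edgeR adjusted p = 0.107) or 3 (edgeR adjusted p = 0.0766). SOX3 missed it without LN-521 replicate 3 (edgeR adjusted p = 0.102) or mixed-coating replicates 1, 2 or 3 (edgeR adjusted p = 0.106, 0.0508 and 0.0626). Among the fits that left out 1 library ETV5 kept it only without LN-521 replicate 1, with edgeR adjusted p-values of 0.0537 and 0.198 without LN-521 replicates 2 and 3, of 0.113, 0.202 and 0.107 without mixed-coating replicates 1, 2 and 3, and of 0.0544 in DESeq2. Among the same fits MYC also kept it only without LN-521 replicate 1, with edgeR adjusted p-values of 0.315 and 0.0914 without LN-521 replicates 2 and 3, of 0.141, 0.211 and 0.180 without mixed-coating replicates 1, 2 and 3, of 0.0513 with RLE size factors and of 0.115 with the GC correction.

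Of 20 genes described as bound and kept active by OCT4, SOX2 and NANOG, 19 were tested, 1 rose and 3 fell, with a median log2 fold change of -0.021. TDGF1 fell as given above, and LIN28A, an RNA-binding inhibitor of let-7, rose by 0.23 ± 0.05 (SE; edgeR adjusted p = 0.00737). SKIL, a repressor in the Nodal and TGF-beta pathway, changed by -0.45 ± 0.08 (SE; edgeR adjusted p = 0.00401), and the TGF-beta family ligand gene GDF3 by -0.74 ± 0.17 (SE; edgeR adjusted p = 0.0210). SKIL had 141, 104.5 and 128.5 TPM on LN-521 and 94.8, 89.6 and 83.5 TPM on the mixed coating, without overlap. Without LN-521 replicate 1 SKIL did not pass (edgeR adjusted p = 0.118), and GDF3 did not pass without LN-521 replicate 3 or mixed-coating replicates 1 or 3 (edgeR adjusted p = 0.130, 0.102 and 0.145) or in DESeq2 (adjusted p = 0.0559). LIN28A did not pass without LN-521 replicate 3 or mixed-coating replicates 2 or 3 (edgeR adjusted p = 0.0765, 0.112 and 0.0568). TDGF1 passed in all 6 of these fits.

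Of 17 developmental regulators described as bound and silent in stem cells, 12 were too low to test and none of the other 5 passed the threshold in edgeR. Among these 5, LHX5 alone had an unadjusted edgeR p-value under 0.05, beside 14.5% of all genes tested. LHX5, a LIM homeobox gene of the forebrain, was the most abundant of them and had 7.70, 6.20 and 3.37 TPM on LN-521 and 18.7, 18.6 and 21.5 TPM on the mixed coating (1.75 ± 0.30, SE; edgeR adjusted p = 0.0865). The groups of LHX5 did not overlap, and it passed without LN-521 replicate 3 (1.49, edgeR adjusted p = 2.97e-06), in DESeq2 (adjusted p = 8.27e-06) and with limma on log2(TPM + 1) (adjusted p = 0.0448). ONECUT1 followed at 0.880 ± 0.400 and 1.08 ± 0.459 TPM (SD, n = 3 each). TBXT, GATA4, GATA6, SOX17 and CDX2 had at most 9 counts in any library.

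Of 20 paralogues 16 were tested, none rose and 2 fell, with a median log2 fold change of -0.15. SALL3, a relative of SALL4, changed by -0.42 ± 0.07 (SE; edgeR adjusted p = 0.00231) at 27.0, 20.8 and 18.9 TPM against 19.6, 16.8 and 14.5, and missed the threshold with the GC correction (-0.39, edgeR adjusted p = 0.0834). POU3F4, a POU factor, changed by -0.62 ± 0.14 (SE; edgeR adjusted p = 0.0433) and missed the threshold in every fit that left out 1 library except that without mixed-coating replicate 1, with edgeR adjusted p-values of 0.140, 0.193 and 0.117 without LN-521 replicates 1, 2 and 3 and of 0.201 and 0.0632 without mixed-coating replicates 2 and 3. With library size alone or the GC correction POU3F4 also missed it (edgeR adjusted p = 0.0780 and 0.141). Of 6 markers of the naive state of pluripotency, 5 were tested and none passed in edgeR. An unadjusted edgeR p-value under 0.05 was found for 2 of them, beside 14.5% of all genes tested. DPPA3 was at 3.36 ± 0.717 and 2.31 ± 0.520 TPM and KLF4 at 2.35 ± 0.364 and 2.60 ± 0.244 TPM (SD, n = 3 each).

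**Figure D5:**
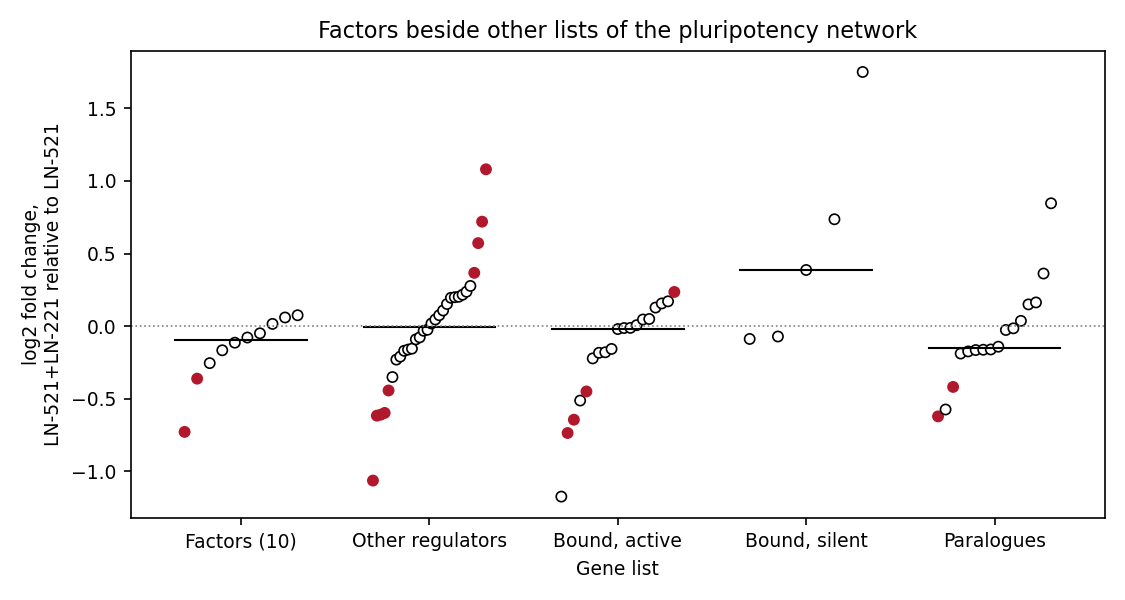
Log2 fold change (y axis, mixed coating relative to LN-521) of the 10 factors and of the tested genes in 4 other lists; each point is a gene, red points passed the adjusted threshold of 0.05 and lines are medians. The factors spread from -0.73 to 0.07, and the other regulators from -1.07 to 1.08.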

How the data were processed

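RNA of 6 wells of H1 cells was sequenced from stranded total RNA libraries as 150 bp read pairs, per the labels' protocols. The submitters' processing notes list cutadapt, STAR 2.5.2b, RSEM 1.2.31 and genome build hg38, without saying how each was used; the gene annotation and strand setting are not given in the sources used here. The authors deposited estimated counts per gene, of which 6.08% to 6.67% per library are not exact whole numbers, and TPM values, which are scaled to the same total in every library. Mitochondrial, ribosomal RNA, 7SK and 7SL genes (1724 IDs) accounted for 6.18% to 7.8% of each count total but 36.9% to 44.4% of each TPM total, so TPM of other genes also moves with these RNAs.

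Symbols came from a table of Ensembl IDs (68% of IDs had one); positions, gene types and GC content came from GENCODE 29 (93.8% of IDs), which is on GRCh38, the same assembly as hg38. Groups and replicate numbers came from the sample titles. Counts were rounded, filtered by filterByExpr (minimum count 10), scaled by TMM and tested with edgeR 4.0.16 (R 4.3.3; robust quasi-likelihood fit, all 6 libraries, no replicate block); SE is the absolute log2 fold change over the square root of F. Intervals are 95% t intervals from that fit. TPM was tested with limma 3.58.1 on log2(value + pseudocount), which understates changes of low genes. Alternatives were RLE factors, library size alone, other filters, removal of the 1724 genes, DESeq2 1.42.0, TPM with pseudocounts of 1 and 0.1, a replicate block, a GC correction (lowess span 0.3), and leaving out each library; a limma trend and the addition of copies were chosen after seeing the data. In simulated data for this comparison (17362 genes tested, 200 changed), the edgeR fit recovered 84% of log2 changes of 1 and 62% of changes of 0.5, and 9.32% of its 161 calls were false.

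The 10 members and all lists were chosen with earlier results of these data known. Named genes are the members, called genes of each list (the 6 with the smallest p where there were more, the 2 most abundant where there were none), the 3 nearest patterns of each called member (0.5 was added to CPM before the log2), and copies with 10 or more counts. The labels call the wells biological replicates but do not name separate passages, so p-values measure the spread between wells, which may be technical. All wells are of 1 cell line.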

Additional observations from a re-analysis of the deposited data

How the results depend on the processing

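Direction was kept under all 20 alternatives for each of the 10 factors except ZFP42 and L1TD1. ZFP42 turned to -0.0072 with the GC correction and -0.007 with that correction and the replicate block, and L1TD1 to 0.0374 without LN-521 replicate 1 (lowest -0.1444, without LN-521 replicate 2); the cause was not tested. NANOG ranged from -0.82 to -0.65 and passed in 15 of 20 alternatives, and POU5F1 from -0.45 to -0.31, also in 15. NANOG did not pass with limma on log2(TPM + 1) (-0.7172, with or without a filter or a trend), log2(TPM + 0.1) (-0.7323) or the GC correction with the replicate block (-0.7505); POU5F1 did not pass with limma on log2(TPM + 1) (-0.3168, likewise in all 3 forms), log2(TPM + 0.1) (-0.3172) or without LN-521+LN-221 replicate 2 (-0.3516, within a range of -0.4473 to -0.3074 over the fits that left out 1 library). DPPA2 passed with the GC correction (-0.2686) and with it and the block (-0.2713). On TPM, limma called 0 of the 10 in all 4 forms, with 2 at an unadjusted p-value under 0.05 in each, beside 1160 (log2(TPM + 1)), 1178 (log2(TPM + 0.1)) and 1128 (trend) of 14428 genes and 2362 of 36252 unfiltered. In edgeR on the counts, leaving out 1 library gave 1 to 2 of the 10. The ratios between SOX2, NANOG and POU5F1 kept their direction with CPM, with each library left out and within replicate numbers.

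Of all genes, 446 passed; 718 did without a filter, 33 with log2(TPM + 1), 16 with log2(TPM + 0.1), 1 with log2(TPM + 1) unfiltered, 44 with a trend, 929 with the GC correction, 1013 with it and the replicate block, and 194 to 1179 with 1 library left out (the highest without LN-521 replicate 1, the lowest without LN-521+LN-221 replicate 3). Of the list genes outside the 10 factors, 17 passed; 2 did with log2(TPM + 1), 0 with log2(TPM + 0.1) (19 at an unadjusted p-value under 0.05), 0 with log2(TPM + 1) unfiltered (24 at an unadjusted p-value under 0.05), 3 with a trend, and 7 to 28 with 1 library left out. Over all genes tested, the deviations of same-numbered wells had correlations of 0.0473, -0.0223 and 0.00902. Such correlations cannot show whether part of the genes was paired by replicate number. With the replicate block 646 genes and the same number of factors (2) passed.

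Among other named genes, signs turned for ONECUT1 with log2(TPM + 1) (0.1408, in all 3 forms), log2(TPM + 0.1) (0.2543) and without LN-521 replicate 3 (0.0463; lowest -0.1853), for NANOGP1 without LN-521+LN-221 replicate 2 (0.0007; lowest -0.2056), for POU5F1B without LN-521 replicate 3 (0.1235; lowest -0.4093), and for POU5F1P4 without a filter (-0.0003), without LN-521 replicate 1 (-0.1064) and without LN-521+LN-221 replicate 3 (-0.1288; highest 0.1232). Low counts limit UTF1 and the copies.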
